A study of Mus musculus with 8 samples.

Results

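Levels of 6 antiviral genes were described in mouse embryonic fibroblasts, the genes for the ADP-ribosyltransferase family members Parp9, Parp10, Parp11, Parp12 and Parp14 and for Dtx3l, the ubiquitin ligase that partners Parp9. Parp1 and Parp2, the DNA-repair members of the same enzyme family, served as a contrast. The 8 genes were taken by name from a table of 24972 genes. All 8 had a mean normalized count of at least 10 over the libraries and were therefore among the 13267 genes tested.

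RNA was sequenced from primary fibroblasts of embryos at embryonic day 14, passaged 2 times and left untreated. The 4 genotypes were wild type (WT), loss of a single Tfam allele (Tfam+/-), loss of both Zbp1 alleles (Zbp1-/-) and the combination (Tfam+/-Zbp1-/-), with 2 libraries each. Tfam packages and transcribes mitochondrial DNA, and Zbp1 is a sensor of Z-form nucleic acids that is itself induced by interferon. Whether a genotype's 2 libraries represent different embryos is not stated, so p-values measure the spread between these libraries, which may be technical. The strain, the sex of the embryos and the way each allele was made are also not given in the labels.

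PARP enzymes transfer ADP-ribose from NAD onto proteins or nucleic acids. Parp1 and Parp2 are activated by DNA breaks and build chains of ADP-ribose that recruit repair factors, whereas Parp10, Parp11, Parp12 and Parp14 attach single ADP-ribose units. Several of the latter, together with Parp9 and Dtx3l, are induced by interferon in many cell types and restrict viral replication, and some viruses carry a macrodomain that removes the modification again.

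Each library held 16051 to 16261 genes above 0, with summed normalized counts from 16752835 to 18303036. Tfam had normalized counts of 629 and 610 for the WT libraries, 278 and 365 for Tfam+/-, 675 and 471 for Zbp1-/- and 424 and 375 for Tfam+/-Zbp1-/-, so all 4 libraries labelled heterozygous were below the other 4. Zbp1 was at 7.34 and 3.19 for the WT libraries, 64.6 and 69.8 for Tfam+/-, 3.79 and 1.03 for Zbp1-/- and 0.862 and 2.69 for Tfam+/-Zbp1-/-. WT and Zbp1-/- libraries overlapped at these low values, so Zbp1 checks its label only in the Tfam+/- background. Tfam+/- replicate 1 and Zbp1-/- replicate 2 stood apart from the rest on the main axis of variation (first principal component) of the tested genes. They were at -52.09 and -34.84 on it, and the rest lay between -0.462 and 22.119. Their deviations from the other library of their genotype correlated across the 13267 tested genes (Pearson r = 0.70). Tfam+/- replicate 2 and Zbp1-/- replicate 1 give the same r, so it does not tell which pair is shifted. Values without Tfam+/- replicate 1 and Zbp1-/- replicate 2 are given for each comparison. The fibroblast label was met, with the summed level of 9 fibroblast markers between 499610 and 735320 normalized counts, against 2594.3 to 6725.3 for 12 leukocyte markers. In bulk RNA, fewer cells of a type and less RNA per cell cannot be told apart.

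Parp9, Dtx3l and Parp14 lie close together on chromosome 16, at 35938470 to 35972621 (plus strand), 35926515 to 35939027 (minus strand) and 35831892 to 35871518 (minus strand) in GRCm38.p6, also called mm10. The spans of Parp9 and Dtx3l overlap by 558 bases at their starts. The labels do not say whether counting used strand, so reads from the overlap are uncertain for both genes. Parp12 (39086412 to 39118349, minus strand) and Parp11 (127446830 to 127514233, plus strand) are both on chromosome 6 but far apart. Parp10 is on chromosome 15 (76232995 to 76243440, minus strand), Parp1 on chromosome 1 (180568891 to 180600999, plus strand) and Parp2 on chromosome 14 (50807897 to 50821301, plus strand).

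RefSeq promoter windows of the same build, 250 bases before to 50 after a start, were at hand for 5 of the 8 genes, with 2 windows for Parp11. They were searched on both strands for GAAA followed after any 2 bases by GAAA, a core of the interferon-stimulated response element, and TTCNNNGAA, a core of the gamma-activated sequence. The 250 bases before the start are printed for Parp11 (chr6:127446590-127446839, plus strand), the antiviral gene that moved least below, for Parp12 (chr6:39118350-39118599, minus strand), an antiviral gene that did move, and for Parp1 (chr1:180568641-180568890, plus strand), the repair contrast. Each runs 5′ to 3′ on its gene's strand, and capitals mark motif matches. In GENCODE vM21 127 of the 250 bases of Parp12 lie in an exon of the lncRNA 4930599N23Rik, and those of Parp11 and Parp1 lie in no exon. The start used for the Parp11 window is not the first base of the RefSeq gene span given above, and the last 10 bases printed lie inside that span.
Parp11: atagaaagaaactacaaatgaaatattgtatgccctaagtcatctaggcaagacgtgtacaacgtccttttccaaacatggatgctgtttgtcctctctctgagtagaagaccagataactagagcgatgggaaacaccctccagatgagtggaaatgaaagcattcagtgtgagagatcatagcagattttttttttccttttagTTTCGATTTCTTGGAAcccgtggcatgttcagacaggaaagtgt
Parp12: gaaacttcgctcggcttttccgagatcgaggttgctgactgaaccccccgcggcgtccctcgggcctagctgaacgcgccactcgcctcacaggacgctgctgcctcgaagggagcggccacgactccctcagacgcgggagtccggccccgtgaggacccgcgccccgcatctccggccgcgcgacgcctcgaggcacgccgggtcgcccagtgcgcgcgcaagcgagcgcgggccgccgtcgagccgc
Parp1: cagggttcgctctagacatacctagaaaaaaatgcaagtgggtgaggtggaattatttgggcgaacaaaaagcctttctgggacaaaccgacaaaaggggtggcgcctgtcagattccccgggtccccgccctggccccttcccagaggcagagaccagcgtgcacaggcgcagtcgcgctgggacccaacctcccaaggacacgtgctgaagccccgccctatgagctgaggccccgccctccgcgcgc
The first Parp11 window was the only one of the 6 with a match. It held TTTCGATTTC, the response element core on the opposite strand, at 44 to 35 bases before the start, and TTCTTGGAA, the gamma-activated core, at 37 to 29 bases before it, so the matches overlap. Over all 32851 windows of the same length, 3.44% held the response element core and 8.3% held TTCNNNGAA. The windows of Parp12, Dtx3l, Parp1, Parp2 and the further Parp11 start held neither set of letters. Parp9, Parp10 and Parp14 were not among the windows. A match describes the letters and was not tested for use in these cells.

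**Figure D1:**
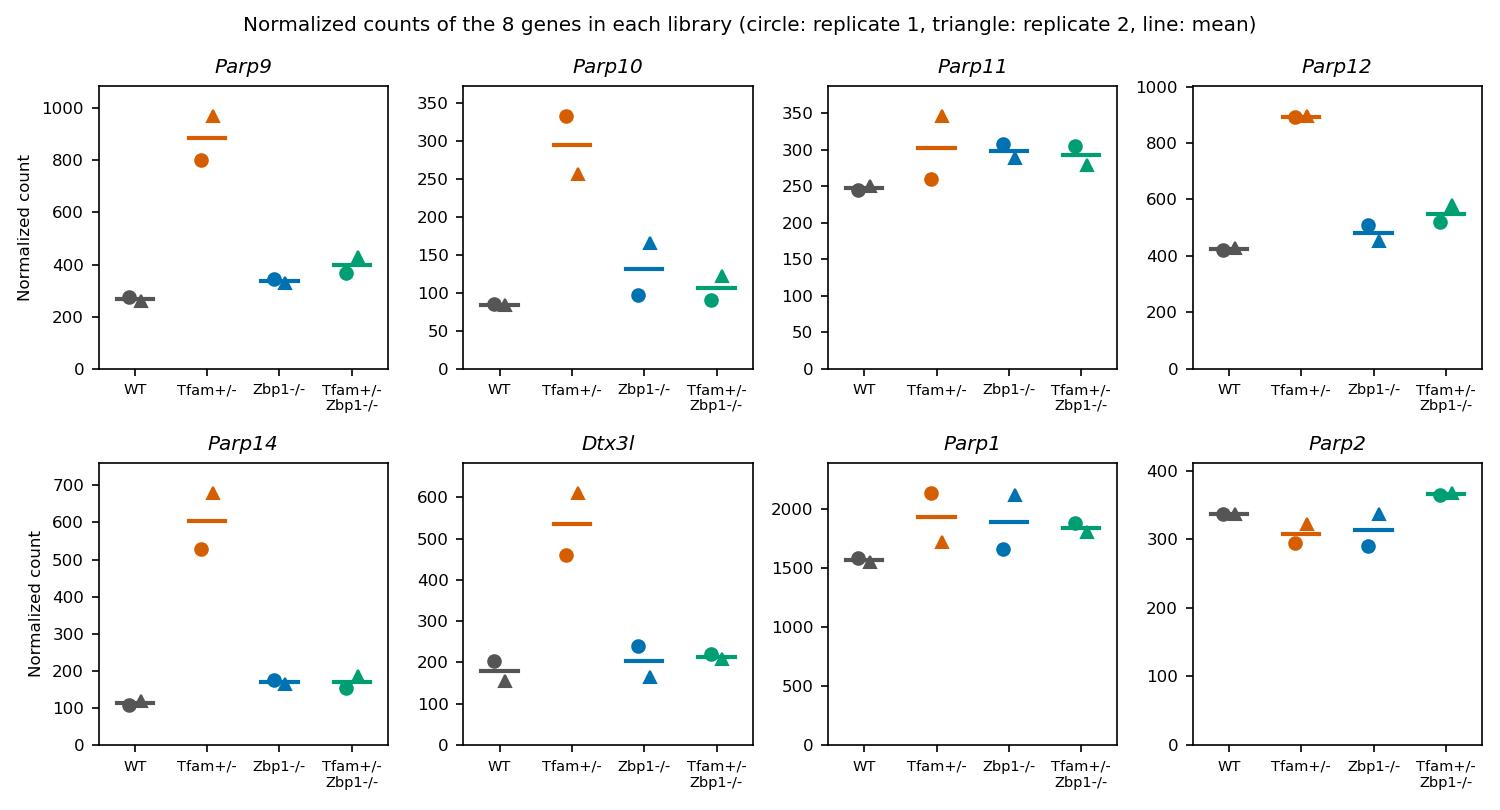
Normalized counts (y axis) of the 8 genes in each of the 8 libraries, by genotype on the x axis; circles are replicate 1, triangles replicate 2 and lines the mean of 2. Both Tfam+/- libraries lie above the other 6 for Parp9, Parp10, Parp12, Parp14 and Dtx3l, and not for Parp11, Parp1 or Parp2.

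Tfam+/- was compared with WT first, as genotypes that both carry Zbp1. Tfam itself was lower by 0.96 on the log2 scale (SE 0.21), with a limma adjusted p of 0.163. Beyond the genes and cell type markers given here, whether the cultures differed in other ways was not tested. In Tfam+/- against WT, 4 of the 6 antiviral genes rose: Parp14 5.31-fold, Parp9 3.29-fold, Dtx3l 2.98-fold and Parp12 2.11-fold. Parp10 was 3.43-fold higher in the mean but did not pass the threshold, and Parp11 and the repair genes Parp1 and Parp2 did not pass it either. A gene counted as called where limma gave a Benjamini-Hochberg adjusted p under 0.05 over all tested genes; the model was fitted to log2(normalized count + 1), and folds are on that scale. Over all tested genes 0.565% were called higher in this comparison and 0.731% in either direction.

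Parp14 carries macrodomains beside its transferase domain and has been tied to interferon and interleukin-4 signalling. Its normalized counts were 107 and 118 for the WT libraries, 529.9 and 680.1 for Tfam+/-, 177 and 164 for Zbp1-/- and 154 and 187 for Tfam+/-Zbp1-/-. The Tfam+/- libraries were far above the rest, WT was the lowest genotype, and both genotypes without Zbp1 overlapped between these extremes. In Tfam+/- against WT its log2 change was 2.41 ± 0.17 (SE; adjusted p = 0.00314), rank 37 from the highest of the 13267 genes.

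Parp9 has macrodomains and works as a complex with Dtx3l, which attaches ubiquitin to histones and viral proteins. Parp9 was at 276 and 259 normalized counts for the WT libraries, 802 and 970.0 for Tfam+/-, 343 and 327 for Zbp1-/- and 366 and 429 for Tfam+/-Zbp1-/-. The genotypes did not overlap and stood in the order WT, Zbp1-/-, Tfam+/-Zbp1-/-, Tfam+/-. Its log2 change in Tfam+/- was 1.72 ± 0.14 (SE; adjusted p = 0.00482).

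Dtx3l counts were 202 and 155 for the WT libraries, 461 and 611 for Tfam+/-, 241 and 166 for Zbp1-/- and 219.7 and 209 for Tfam+/-Zbp1-/-. The Tfam+/- libraries were above all others, Zbp1-/- overlapped both WT and Tfam+/-Zbp1-/-, and the 6 lower libraries lay between 155 and 241. The log2 change was 1.58 ± 0.24 (SE), and with an adjusted p of 0.0459 it was just inside the threshold. The Dtx3l call was lost under other settings: its adjusted p was 0.0608 with no filter, 0.055 with a mean of at least 50, 0.0606 without a trend in the prior, 0.113 in a fit of only the 2 genotypes and 0.124 without Tfam+/- replicate 2.

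Parp9 and Dtx3l, the partners of 1 complex, were also compared as a ratio. The ratio of Parp9 to Dtx3l normalized counts was 1.36 and 1.67 for the WT libraries, 1.74 and 1.59 for Tfam+/-, 1.42 and 1.97 for Zbp1-/- and 1.66 and 2.05 for Tfam+/-Zbp1-/-, so the genotypes overlapped. The ratio of Parp14 to Parp9 was 0.661 and 0.701 in Tfam+/- and between 0.387 and 0.515 in the other 6 libraries. These ratios are descriptions of 2 libraries per genotype, with no test.

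Parp12 has CCCH zinc fingers that bind RNA and moves from the Golgi to stress granules under stress. It was at 421 and 427 normalized counts for the WT libraries, 893 and 895 for Tfam+/-, 511 and 454 for Zbp1-/- and 519 and 579 for Tfam+/-Zbp1-/-. The Tfam+/- pair was the tightest of any antiviral gene at this genotype (mean 894 ± 1.66, SD, n = 2). Its log2 change was 1.08 ± 0.12 (SE; adjusted p = 0.0138, and 0.0948 in a fit of only the 2 genotypes).

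Parp10 is a transferase that binds Myc and ubiquitin and restricts some RNA viruses. Its counts were 84.5 and 84.0 for the WT libraries, 332 and 256 for Tfam+/-, 96.9 and 165 for Zbp1-/- and 90.7 and 122 for Tfam+/-Zbp1-/-. Both Tfam+/- libraries were the highest, while the Zbp1-/- pair differed from each other by more than any other pair for this gene on the log2 scale. The log2 change of 1.78 ± 0.29 (SE) had a 95% interval of 1.10 to 2.46 and an adjusted p of 0.0586. In the 2 libraries that stood apart Parp10 was higher than in the other library of the same genotype. The log2 differences were 0.37 in Tfam+/- and 0.77 in Zbp1-/-. Without that pair the Parp10 change in Tfam+/- was 1.59, from a fit that holds 1 Tfam+/- library.

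Parp11, a transferase with a WWE domain that has been linked to the nuclear envelope and to interferon receptor turnover, gave a different picture. It was at 245 and 251 normalized counts for the WT libraries, 259 and 346 for Tfam+/-, 307 and 289 for Zbp1-/- and 306 and 279 for Tfam+/-Zbp1-/-. WT held the lowest values, and Tfam+/- overlapped both genotypes that lack Zbp1. The log2 change in Tfam+/- was 0.27 ± 0.16 (SE; adjusted p = 0.559), with a 95% interval of -0.11 to 0.65. Without the 2 libraries that stood apart it was 0.48 ± 0.10 (SE; adjusted p = 0.004), a call from a fit that holds 1 Tfam+/- library, and without Tfam+/- replicate 2 it was 0.06 (adjusted p = 0.744).

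The repair genes, which sense DNA breaks, did not pass the threshold. Parp1 was at 1585 and 1552 normalized counts for the WT libraries, 2135 and 1720.0 for Tfam+/-, 1658 and 2119.9 for Zbp1-/- and 1876 and 1803 for Tfam+/-Zbp1-/-. Its 2 highest values were the 2 libraries that stood apart. The change in Tfam+/- was 0.29 ± 0.16 (SE; adjusted p = 0.559; 95% interval -0.08 to 0.66), 0.13 ± 0.05 without that pair (adjusted p = 0.0619) and 0.44 without Tfam+/- replicate 2 (adjusted p = 0.137). Parp2 was at 337 and 336 for the WT libraries, 295 and 322 for Tfam+/-, 290.3 and 337 for Zbp1-/- and 365 and 368 for Tfam+/-Zbp1-/-. Only the double mutant lay above all other Parp2 libraries, and the log2 change in Tfam+/- was -0.13 ± 0.12 (SE; adjusted p = 0.608; 95% interval -0.42 to 0.17). Both intervals end below the 1.08 of Parp12, the smallest change among the 4 called genes.

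As a group, the 6 antiviral genes had 1.65 as their median log2 change in Tfam+/- against WT, beside -0.01 over all tested genes. Both Tfam+/- libraries were above the other 6 for 5 of the 6 antiviral genes and for 0 of the 2 repair genes, and for 4.73% of all tested genes. As a reference, 10 interferon-stimulated and signalling genes chosen with results of these data known were all called higher (median 2.79), from 1.48 for Irf9 to 4.81 for Usp18. The changes of Parp9, Parp14 and Dtx3l lay within the range of these 10 genes and that of Parp12 below it. Without WT replicate 1 or 2, 4 and 5 of the 10 were called. The number of antiviral genes called depended on single libraries, as did that of all tested genes, which fell in each of the fits named here. None of the 6 was called without either WT library. Fewer of them were called without either Tfam+/- library or without either Tfam+/-Zbp1-/- library. These fits hold 1 library of a genotype. Without the 2 libraries that stood apart all 6 were called, in a fit where 2049 of all tested genes were called and the lone Tfam+/- and Zbp1-/- libraries were assumed to vary like the other genotypes.

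**Figure D2:**
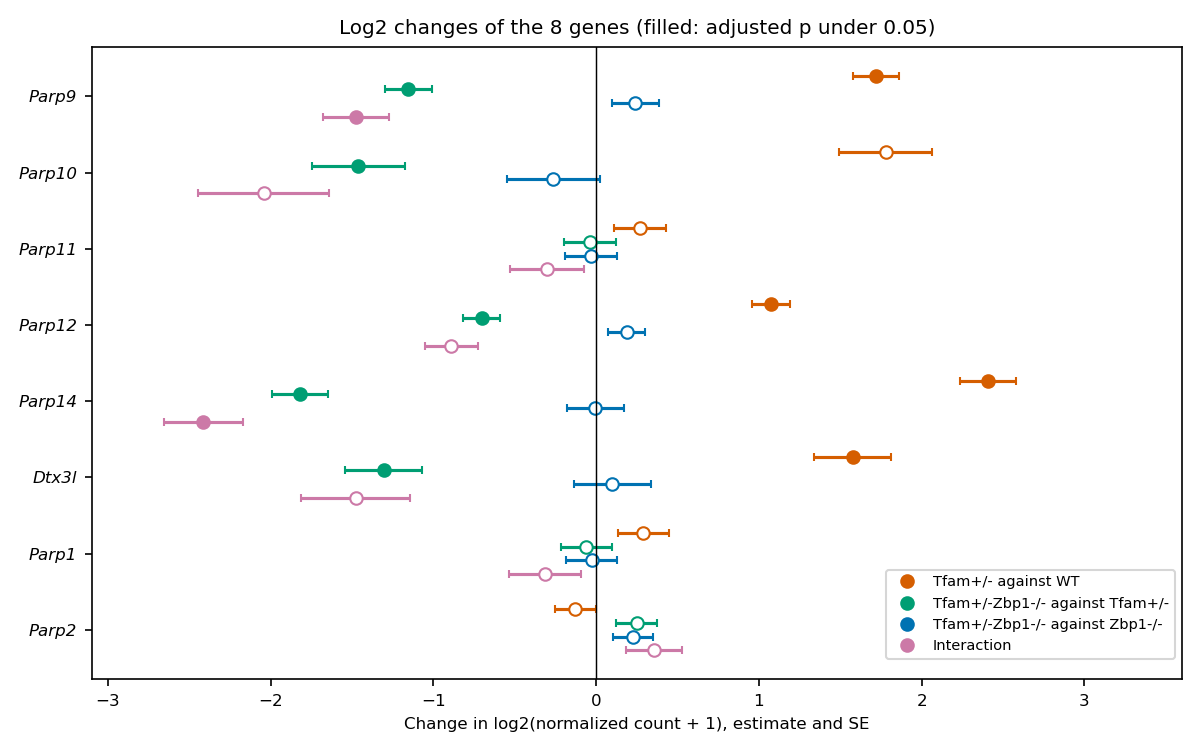
Log2 changes (x axis, log2 of normalized count + 1) of the 8 genes (y axis) in 3 comparisons and the interaction, with SE bars; filled points passed an adjusted p of 0.05. Parp9, Parp12, Parp14 and Dtx3l are called higher in Tfam+/- and, with Parp10, lower in Tfam+/-Zbp1-/- against Tfam+/-, while Parp11, Parp1 and Parp2 have no filled point.

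Tfam+/- cells with and without Zbp1 were compared next. In Tfam+/-Zbp1-/- against Tfam+/-, 5 of the 6 antiviral genes fell, when 2.32% of all tested genes were called lower and 5.64% in either direction. Parp14 fell by 1.82 on the log2 scale (SE 0.17; adjusted p = 0.00369), which is 3.53-fold. Parp10 fell by 1.46 (SE 0.29; adjusted p = 0.0344), Dtx3l by 1.30 (SE 0.24; adjusted p = 0.0265), Parp9 by 1.15 (SE 0.14; adjusted p = 0.00722) and Parp12 by 0.70 (SE 0.12; adjusted p = 0.0184). Parp11 differed by -0.04 ± 0.16 (SE; adjusted p = 0.915; 95% interval -0.42 to 0.34), Parp1 by -0.06 ± 0.16 (adjusted p = 0.852) and Parp2 by 0.25 ± 0.12 (adjusted p = 0.306). This comparison shares the Tfam+/- libraries with the one before it, so high values there enter both. Without the 2 libraries that stood apart the changes of the same 5 genes kept their direction. They were -1.999 for Parp14, -1.51 for Dtx3l, -1.29 for Parp9, -1.27 for Parp10 and -0.71 for Parp12, and Parp11 was -0.24. That fit holds 1 Tfam+/- library and called far more of all tested genes, so its calls are not used here.

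The antiviral median was -1.23, beside 0.14 over all tested genes, and all 10 reference interferon genes were called lower, with a median of -2.08 (1 of 10 without either Tfam+/-Zbp1-/- library). Of the 748 genes called here 58.8% were higher, a share that was 42.2% of 742 with scaling by trimmed means of M-values; the antiviral calls and directions were the same under both scalings. Leukocyte markers moved with this comparison: 10 of 12 were called lower, their summed level was 5917 to 6725.3 normalized counts in Tfam+/-, 2594.3 to 2629.8 in Tfam+/-Zbp1-/-, 5103.5 to 5156.3 in WT and 3113.5 to 3250.1 in Zbp1-/-, and none of the 12 was listed at 0 in every library. Ptprc, the pan-leukocyte antigen, was between 49.9 and 169 normalized counts. Of the tested epithelial markers 2 of 3 and of the endothelial markers 1 of 3 were also called lower. The endothelial markers did not move one way, since 1 of the 3 was higher, by 1.31 on the log2 scale, without a call. All 3 endothelial markers had an unadjusted p under 0.05 (limma). Among the 9 fibroblast markers 1 was called higher and 0 lower. In Tfam+/- against WT 0 of the 12 markers were called (6 at an unadjusted p under 0.05, limma; 4 called without the 2 libraries that stood apart), with a median of 0.41. Of 3 tested epithelial and 3 endothelial markers 0 were called in Tfam+/- against WT, with medians of 0.76 and 0.23. Unadjusted p was under 0.05 (limma) for 1 epithelial and 2 endothelial markers. The part of other cell types in the antiviral levels was not tested. Fewer antiviral genes and leukocyte markers were called without either WT library, and none without either Tfam+/-Zbp1-/- library. Fewer antiviral genes were also called without Tfam+/- replicate 1. Calls over all tested genes fell in each of these fits, which hold 1 library of a genotype, so the losses are not particular to these genes. Without Tfam+/- replicate 2 the Dtx3l change was -1.10 and its call was lost too, while calls over all tested genes rose.

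In cells that already lacked Zbp1, losing a Tfam allele was followed by no call among the 8 genes. In Tfam+/-Zbp1-/- against Zbp1-/-, 0 of the 6 antiviral genes were called by limma, and 0 had an unadjusted p under 0.05; of all tested genes 0.415% were called. The log2 changes ran from -0.26 for Parp10 to 0.24 for Parp9. Of the 10 reference interferon genes 0 were called, 9 were above 0 and 6 had an unadjusted p under 0.05 (limma), with a median of 0.51, and 8 were called without the 2 libraries that stood apart. The 95% intervals were -0.10 to 0.58 for Parp9, -0.42 to 0.41 for Parp14, -0.09 to 0.46 for Parp12, -0.46 to 0.66 for Dtx3l and -0.94 to 0.42 for Parp10. In each case the change of the same gene in Tfam+/- against WT lay above the interval, and the test of that difference follows. Parp2 was 0.23 ± 0.12 (SE; adjusted p = 0.503) and Parp1 -0.03 ± 0.16 (SE; adjusted p = 0.934). Without the 2 libraries that stood apart both repair genes were called in this comparison, Parp2 at 0.34 (adjusted p = 0.014) and Parp1 at 0.15 (adjusted p = 0.0259), while 3102 of all tested genes were called.

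The difference between the 2 Tfam effects was tested directly as an interaction, that is, as the Tfam+/-Zbp1-/- against Zbp1-/- change after subtracting the Tfam+/- against WT change. It was called for 2 of the 6 antiviral genes, Parp14 at -2.41 ± 0.24 (SE; adjusted p = 0.0193) and Parp9 at -1.48 ± 0.20 (SE; adjusted p = 0.0381), when 0.445% of all tested genes were called lower and 0.663% in either direction. Parp10 had -2.04 ± 0.40 (SE; adjusted p = 0.0947), Parp12 -0.89 ± 0.16 (SE; adjusted p = 0.0816) and Dtx3l -1.48 ± 0.33 (SE; adjusted p = 0.127). These 3 were past an unadjusted p of 0.05 but not the threshold. Parp11 had -0.30 ± 0.23 (SE; adjusted p = 0.419; 95% interval -0.84 to 0.24), Parp1 -0.32 ± 0.22 (SE; adjusted p = 0.393) and Parp2 0.35 ± 0.17 (SE; adjusted p = 0.325). Among the 10 reference interferon genes 8 were called lower, with a median of -2.33.

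Of the 12 leukocyte markers 0 were called in the interaction (8 at an unadjusted p under 0.05, limma; 7 called without the 2 libraries that stood apart), and their median was -0.70. Among 3 tested epithelial markers 0 were called and 3 had an unadjusted p under 0.05 (median -1.47), and among 9 fibroblast markers 0 were called and 4 had one (median -0.48), beside a median of -1.48 for the 6 antiviral genes. The part of these markers' cells in the interaction was not tested. Calls of the interaction moved with single libraries. No antiviral call remained without either WT library, without either Tfam+/-Zbp1-/- library or without Zbp1-/- replicate 2. Every call over all tested genes, the reference interferon genes among them, was lost in the same fits. That loss is therefore not particular to the 6 antiviral genes. Fewer antiviral calls were left without Tfam+/- replicate 1 or without Zbp1-/- replicate 1. Each of these fits holds 1 library of a genotype. The estimates themselves moved little when 1 library was left out, from -2.59 to -2.23 for Parp14 and from -1.61 to -1.34 for Parp9. Without the 2 libraries that stood apart all 6 antiviral genes were called, with Parp11 at -0.55 (adjusted p = 0.0138), Dtx3l at -1.95 (adjusted p = 1.24e-06) and Parp10 at -1.47 (adjusted p = 0.00062), and Parp2 was called in the other direction at 0.40 (adjusted p = 0.0408), beside 2534 of all tested genes.

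**Figure D3:**
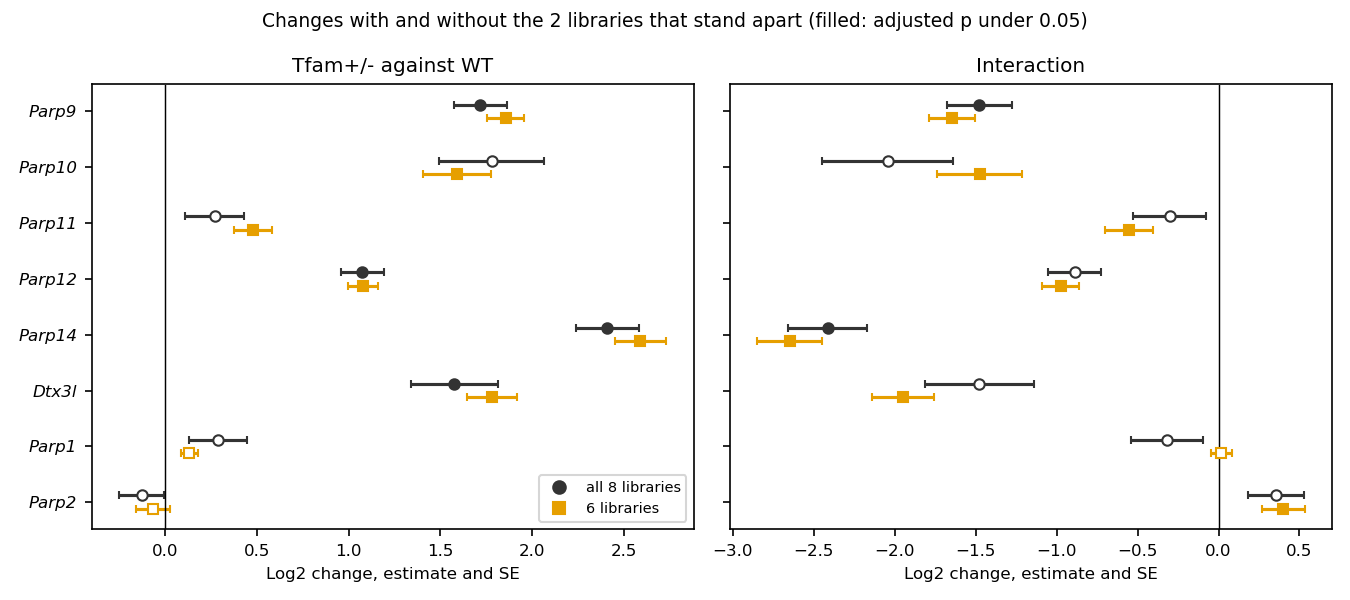
Log2 changes (x axis) with SE bars of the 8 genes (y axis) from all 8 libraries (circles) and from the 6 left without Tfam+/- replicate 1 and Zbp1-/- replicate 2 (squares), for Tfam+/- against WT (left) and the interaction (right); filled points passed an adjusted p of 0.05. Parp11 goes from 0.27 to 0.48 and Parp10 from 1.78 to 1.59 on the left, and all 6 antiviral genes are filled in both panels with 6 libraries.

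Loss of Zbp1 on its own was followed by no call among the 8 genes. In Zbp1-/- against WT 0 of the 6 antiviral genes were called by limma and 1, Parp14, had an unadjusted p under 0.05; 1.06% of all tested genes were called. All 6 estimates were above 0, from 0.17 for Dtx3l to 0.59 for Parp14 (SE 0.17; adjusted p = 0.162), beside a median of 0.11 over all tested genes. Parp1 was 0.26 ± 0.16 (SE; adjusted p = 0.374) and Parp2 -0.11 ± 0.12 (SE; adjusted p = 0.598). Without the 2 libraries that stood apart 5 of the 6 were called, all but Parp10, at 0.27 for Parp12 to 0.65 for Parp14, and 4548 of all tested genes were called. In Zbp1-/- itself Dtx3l was 0.54 lower and Parp10 0.77 higher on the log2 scale in replicate 2 than in replicate 1, and the change of Dtx3l from WT turned to -0.10 without Zbp1-/- replicate 1 and to -0.02 without WT replicate 2. The Parp10 change from WT was 0.58 (SE 0.29; adjusted p = 0.302), 0.97 without Zbp1-/- replicate 1 and 0.20 without replicate 2.

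The double mutant did not pass the threshold against WT for any of the 6 antiviral genes. In Tfam+/-Zbp1-/- against WT the 6 estimates were all above 0, from 0.23 for Parp11 to 0.59 for Parp14, with 0 called by limma and 3 at an unadjusted p under 0.05; 1.38% of all tested genes were called and their median change was 0.12, beside 0.34 for the antiviral genes (0.00 and 0.23 with scaling by trimmed means of M-values). Parp9 had a log2 change of 0.56 ± 0.14 (SE; adjusted p = 0.138) and Parp12 0.37 ± 0.12 (SE; adjusted p = 0.231). All 10 reference interferon genes were above 0, with 2 called higher and a median of 0.79. Of the 12 leukocyte markers 4 were called lower, with a median of -0.81. Parp1 was 0.23 ± 0.16 (SE; adjusted p = 0.618) and Parp2 0.12 ± 0.12 (SE; adjusted p = 0.756). Parp1 was called in a fit of only these 2 genotypes (limma adjusted p = 0.000117). In fits of only these 2 genotypes, or without the 2 libraries that stood apart, 4 of the 6 were called, with 5935 and 5946 calls over all tested genes.

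Levels were compared between the genes as normalized counts per kilobase of the longest coding transcript in GENCODE vM21, a scale on which the length used is an assumption. In WT the order was Parp1 at 405 ± 5.92 (SD, n = 2), Parp2 at 178 ± 0.307, Parp12 at 131 ± 1.22, Parp9 at 75.4 ± 3.34, Parp11 at 66.2 ± 0.996, Dtx3l at 33.7 ± 6.25, Parp10 at 25.02 ± 0.110 and Parp14 at 15.1 ± 1.05. Neighbours in this order were apart by more than 1 SD of either. The repair genes thus led and Parp14, with its long transcript, came last. In Tfam+/- Parp1 stayed highest at 498 ± 75.7 (SD, n = 2), while Parp12 at 277 ± 0.515 and Parp9 at 249.7 ± 33.5, which did not differ beyond their spread, stood above Parp2 at 163 ± 9.85. Dtx3l at 101 ± 19.98, Parp10 at 87.3 ± 16.0, Parp14 at 81.6 ± 14.3 and Parp11 at 80.8 ± 16.4 came last, and neighbours among these 4 did not differ beyond their spread. In Zbp1-/- the levels were 488 ± 84.3 for Parp1, 166 ± 17.5 for Parp2, 149 ± 12.4 for Parp12, 94.4 ± 3.12 for Parp9, 79.7 ± 3.40 for Parp11, 39.0 ± 14.4 for Parp10, 38.3 ± 10.0 for Dtx3l and 22.9 ± 1.24 for Parp14 (SD, n = 2). There Parp2 and Parp12, and Parp10 and Dtx3l, did not differ beyond their spread. In Tfam+/-Zbp1-/- the order was again that of WT, from 475 ± 13.3 for Parp1, 194 ± 1.25 for Parp2 and 170 ± 13.0 for Parp12 to 112 ± 12.55 for Parp9, 78.05 ± 4.98 for Parp11, 40.4 ± 1.45 for Dtx3l, 31.6 ± 6.64 for Parp10 and 22.95 ± 3.15 for Parp14 (SD, n = 2).

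Per-library levels of the antiviral genes followed one another to different degrees. Over the 8 libraries, log2 levels of Parp9 correlated with those of Parp12 and Parp14 at a Pearson r of 0.99 each, with Dtx3l at 0.96 and with Parp10 at 0.89. For Parp10 and Dtx3l r was 0.80, and for Parp9 and Parp11 it was 0.49. Parp9 gave 0.40 with Parp1 and -0.35 with Parp2. These points share libraries and fall into 1 high genotype and 3 lower ones, so the values describe that contrast and carry no p.

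Among tested genes outside the 8, the 3 whose log2 levels were most like each member over the 8 libraries were listed by Pearson r. Being picked as the highest r of so many genes over 8 libraries, they are high by choice, and r carries no p. For Parp9 they were Irf9 (0.99), Ifit3 (0.99) and Xaf1 (0.99), and for Parp14 Rnf213 (0.99), Ifit3 (0.99) and Gbp2 (0.99). Parp12 was most like Edn1 (0.99), Rtp4 (0.99) and Ifit3 (0.99), and Dtx3l most like Trim21 (0.99), Trim30d (0.99) and Chst11 (0.98). Parp10 gave Znfx1 (0.99), Ifi27 (0.99) and Ier3 (0.98). The nearest genes to Parp11 were less close, with Iqgap2 (0.92), Glrx3 (0.91) and Mtmr9 (0.89). Parp1 gave D8Ertd738e (0.99), Tedc2 (0.99) and Tubb4b (0.99), and Parp2 gave B3galnt2 (0.96), Mir546 (0.96) and Pcdhb4 (0.95). The 2 highest Parp1 values were those of the 2 libraries that stood apart. Irf9 is a subunit of the interferon-activated transcription factor, and Ifit3, Xaf1, Rtp4, Gbp2, Ifi27 and Rnf213 are known interferon-induced genes, which is background and was not tested here. The other genes listed, Edn1, Ier3 and Chst11 among them, are not classed here.

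Of 9 further PARP genes, all tested, 1 was called in Tfam+/- against WT. It was Zc3hav1, the zinc-finger antiviral protein also called Parp13, which binds CpG-rich viral RNA and has no transferase activity. Zc3hav1 was at 1003 and 934 normalized counts for the WT libraries, 1636 and 1879 for Tfam+/-, 1176 and 1039 for Zbp1-/- and 997 and 943 for Tfam+/-Zbp1-/-. Both Tfam+/- libraries were above the other 6, and the double mutant overlapped WT. Zc3hav1 rose by 0.86 ± 0.12 on the log2 scale in Tfam+/- (SE; adjusted p = 0.0394) and fell by 0.85 in Tfam+/-Zbp1-/- against Tfam+/- (SE 0.12; adjusted p = 0.0112), with an interaction of -1.05 ± 0.17 (SE; adjusted p = 0.0623). The first call was lost when any 1 WT, Tfam+/- or Tfam+/-Zbp1-/- library was left out, and the second without either Tfam+/-Zbp1-/- library; neither was made in a fit of only the 2 genotypes.

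The remaining PARP genes, Parp3, Parp4, Parp6, Parp8, Parp16, Tiparp and the tankyrases Tnks and Tnks2, had 0 calls in all 6 comparisons. Tiparp, a target of the aryl hydrocarbon receptor, had the largest difference among them in the first 2 comparisons, -0.37 in Tfam+/- against WT and 0.68 in Tfam+/-Zbp1-/- against Tfam+/-. Its normalized counts were 804 and 821 for the WT libraries, 449 and 884 for Tfam+/-, 881 and 488 for Zbp1-/- and 1031 and 990.2 for Tfam+/-Zbp1-/-. The low values were those of the 2 libraries that stood apart. Dtx2, Dtx3 and Dtx4, the tested relatives of Dtx3l, ranged from 0.02 to 0.07 in Tfam+/- against WT and from 0.07 to 0.20 in Tfam+/-Zbp1-/- against Tfam+/-, with 0 of 3 called. Over all tested genes 0.415% to 5.64% were called in the 6 comparisons, and for so few genes 0 calls is near these shares.

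**Figure D4:**
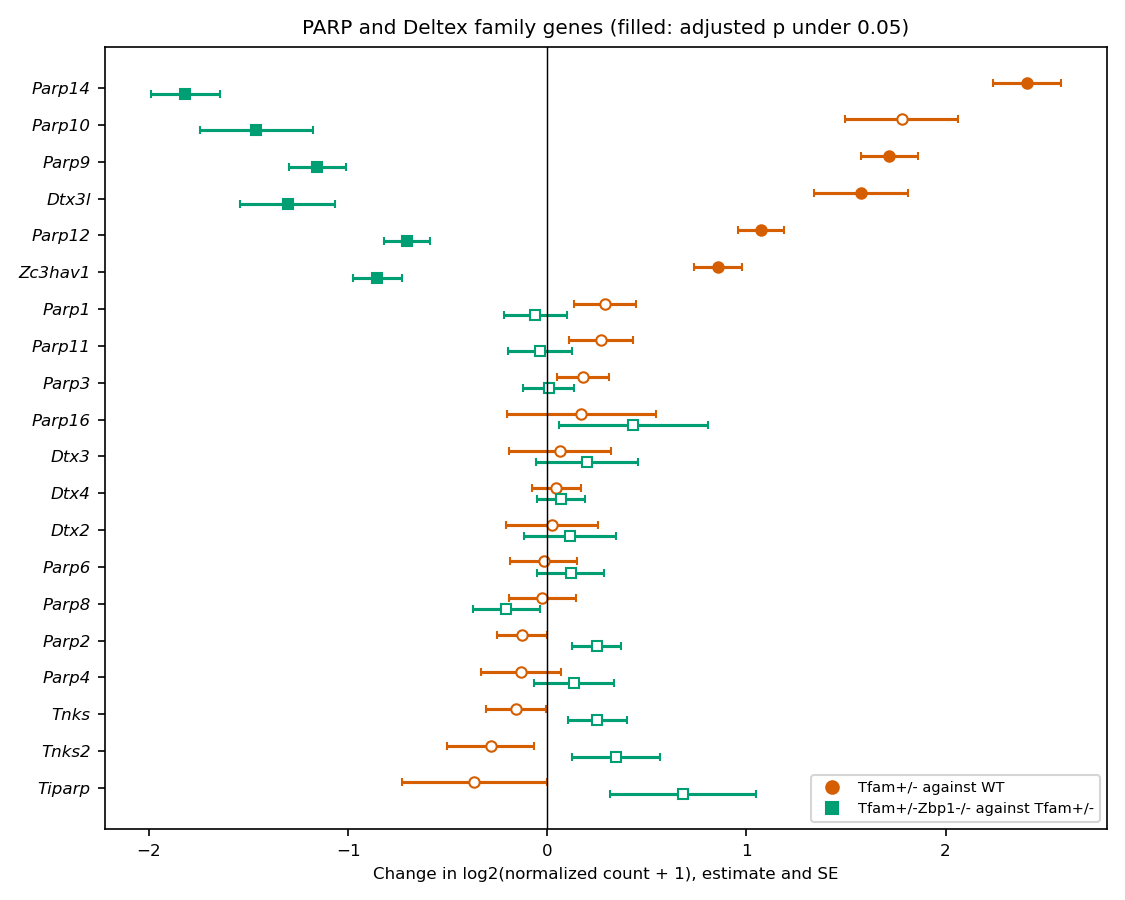
Log2 changes (x axis, log2 of normalized count + 1) with SE bars of 20 tested PARP and Deltex genes (y axis), in Tfam+/- against WT (circles) and Tfam+/-Zbp1-/- against Tfam+/- (squares); filled points passed an adjusted p of 0.05. Parp9, Parp12, Parp14, Dtx3l and Zc3hav1 are filled in both comparisons and Parp10 in the second, and the other 14 genes are in neither.

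Genes that supply the substrate or remove the product were examined next. Of all tested genes 0.731% were called in Tfam+/- against WT and 5.64% in Tfam+/-Zbp1-/- against Tfam+/-. For lists of 8 or 11 genes 0 calls is near these shares, as is 1 call among 39. Among 8 tested genes of ADP-ribose removal, 0 were called in either of the first 2 comparisons. The largest changes were 0.44 for Macrod1, which cleaves ADP-ribose from proteins, in Tfam+/- against WT, and 0.37 for Parg, which cuts ADP-ribose chains, in Tfam+/-Zbp1-/- against Tfam+/-. For 8 tested genes of NAD synthesis 0 were called, with the largest changes at -0.28 for Nmrk1 in Tfam+/- against WT, and 0.53 for Naprt and 0.53 for Nmnat2 in the other comparison. Of 11 genes of single-strand break repair, the pathway of Parp1, 0 were called, and the largest values were 0.36 for Fen1 and 0.28 for Polb. Over these lists and the further PARP and Deltex genes, 39 were tested, of which 1 was called in Tfam+/- against WT (1 at an unadjusted p under 0.05, limma) and 1 in Tfam+/-Zbp1-/- against Tfam+/- (3 at an unadjusted p under 0.05). Their median log2 change was 0.02 in the first and 0.12 in the second. Without the 2 libraries that stood apart these counts were 5 and 13, in fits that called 2049 and 5779 of all tested genes.

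The chromosomal neighbours of the 8 genes were checked in the same fit. Within 50 kb of a member, 10 further genes were tested, among them Kpna1 beside Parp9, Hspbap1 beside Parp14, Kdm7a beside Parp12, and Plec and Grina beside Parp10. In each of the 6 comparisons 0 of the 10 were called by limma. In Tfam+/- against WT 2 had an unadjusted p under 0.05, and 0.731% of all tested genes were called. In Tfam+/-Zbp1-/- against Tfam+/- 1 had one, and 5.64% of all tested genes were called. For 10 genes, 0 calls is near these shares. Some of the 10 were called without the pair of libraries that stood apart, in fits with 1 Tfam+/- library that called far more of all genes. The log2 changes of the 10 ranged from -0.78 to 0.35 in Tfam+/- against WT. On chromosome 16 Kpna1 had -0.36 ± 0.34 (SE; adjusted p = 0.604) and Hspbap1 0.13 ± 0.16 (SE; adjusted p = 0.678) in Tfam+/- against WT, beside the calls of Parp9, Dtx3l and Parp14.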

How the data were processed

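RNA sequencing covered 8 libraries of 4 genotypes, grouped by their labels. Alignment by the authors used STAR within the BaseSpace RNAseq Alignment software to mm10 with RefSeq genes, per the series' design text; STAR 2.6.1a and Salmon are named in the submitters' processing notes. The authors deposited 1 normalized count per gene and library, treated here as a signal; its scaling and strand use were not given in any label. Only 22.24% to 34.89% of low values lay within 0.01 of whole multiples of the most repeated value, so whole reads were not recovered and the read depth is unknown.

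limma 3.58.1 in R 4.3.3 fitted log2(normalized count + 1) of 13267 genes with a mean of at least 10, all genotypes together, with a mean-variance trend and 4 residual and 2.775 prior degrees of freedom. This scale understates changes of low genes. Tests were two-sided; for single genes an exact permutation test of 2 against 2 libraries cannot go below p = 0.333. The fit was tested on simulated data. The fit was repeated with a pseudocount of 5 or 0.1, with all genes or those of mean 50 and above, after scaling by trimmed means of M-values (30% and 5% trimmed), without the trend, on the compared genotypes alone, with replicate number as block, and leaving out single libraries or the pair that stood apart.

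The members and lists were chosen with earlier results of these data known. Named genes were the 8 members, Tfam and Zbp1, genes of the lists that were called or had the largest change of their list, the 3 genes most alike each member, and genes within 50 kb. Ptprc, Irf9 and Usp18 are named as a marker and as ends of a range, and Parp and Deltex relatives as members of their list. RefSeq and GENCODE vM21 gave coordinates in GRCm38.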

Additional observations from a re-analysis of the deposited data

Results flagged for a closer look

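The change on losing a Tfam allele differed between cells with and without Zbp1 for 2 of the 8 genes, by the interaction test of limma. For Parp14 it was 2.41 on the log2 scale with Zbp1 (107 and 118 normalized counts for WT, 529.9 and 680.1 for Tfam+/-) and 0.00 without (177 and 164 for Zbp1-/-, 154 and 187 for Tfam+/-Zbp1-/-), a difference of -2.41 ± 0.24 (SE; adjusted p = 0.0193). For Parp9 it was 1.72 with Zbp1 and 0.24 without, a difference of -1.48 ± 0.20 (SE; adjusted p = 0.0381). Both values kept their sign in every alternative run, and the adjusted p over these ranged from 4.93e-08 to 0.209 for Parp14 and from 2.47e-07 to 0.279 for Parp9.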

How the results depend on the processing

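Over the alternatives, 704 of the recomputed results of the 8 genes kept their direction and side of the threshold, 60 lost a call, 25 gained one and 19 changed sign; under pseudocounts of 5 and 0.1 and with scaling by trimmed means of M-values all 48 kept both. With 2 libraries a genotype, single libraries decide calls more than the estimates. Calls over all tested genes also rose and fell with single libraries, so these moves are not particular to the 8 genes. The edgeR count test was not run, since whole reads were not recovered. The cause of the changes below was not tested. Residual degrees of freedom were 4 with all libraries, 3 without 1 library, and 2 without the 2 libraries that stood apart or in fits of only the genotypes compared. Prior degrees of freedom were 2.775 with all libraries. They rose to 14.568 without the 2 libraries that stood apart and to 14.764 in the fit of only WT and Tfam+/-Zbp1-/-. In the other fits of only the genotypes compared they were 3.257 to 3.616.

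For the antiviral genes called, counts were 4 in Tfam+/- against WT, and 2 in a fit of only the genotypes compared and 2 with the replicate block; leaving out 1 library gave 0 to 5. In Tfam+/-Zbp1-/- against Tfam+/- the count was 5, and 2 with the replicate block; leaving out 1 library gave 0 to 5. The interaction count was 2, and 1 with no filter, 0 with the replicate block, 6 without the 2 libraries that stood apart, and 0 to 2 leaving out 1 library. In Zbp1-/- against WT it was 0, and 5 without that pair; in Tfam+/-Zbp1-/- against WT it was 0, and 4 in a fit of only these genotypes or without the pair. For the further PARP, Deltex, ADP-ribose, repair and NAD genes the count was 1 in Tfam+/- against WT, 0 without trend, 0 in the fit of only these genotypes, 0 with the replicate block, 5 without the pair and 0 to 1 leaving out 1 library. In Tfam+/-Zbp1-/- against Tfam+/- it was 1, 0 in the fit of only these genotypes, 13 without the pair and 0 to 1 leaving out 1 library. From 0 it went without the pair to 9 in Zbp1-/- against WT, 11 in Tfam+/-Zbp1-/- against Zbp1-/-, 15 in Tfam+/-Zbp1-/- against WT (also 15 in the fit of only these genotypes) and 3 in the interaction.

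The replicate numbers did not pair the libraries: deviations of same-numbered libraries correlated between -0.70 and 0.06. With the replicate block 7 of the 48 results lost a call and 41 were as before; over all genes 28, 1, 351, 1, 8 and 0 were called, with WT as base for Tfam+/- and for Zbp1-/-, with Tfam+/-, Zbp1-/- and WT as base for the double mutant, and in the interaction, where the fit without it called 97, 141, 748, 55, 183 and 88. In fits of only the genotypes compared the first 5 counts were 28, 1, 359, 1 and 5935, with no filter Zbp1-/- against WT gave 87, Tfam+/-Zbp1-/- against Zbp1-/- 26 and against WT 117 and the interaction 47, and without the pair all counts were 2049 to 5946. Scaling by trimmed means of M-values moved the median of all genes from 0.11 to -0.01 in Zbp1-/- against WT (83 calls), from 0.14 to 0.02 in Tfam+/-Zbp1-/- against Tfam+/- and from 0.12 to 0.00 in Tfam+/-Zbp1-/- against WT; the share of calls that were higher went from 84.4% to 72.3%, 58.8% to 42.2% and 65% to 47.9%.

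Signs changed only for values that were not called from all libraries. Without the pair these were Parp1 in Tfam+/-Zbp1-/- against Tfam+/- (0.0964), against Zbp1-/- (0.1493, called) and in the interaction (0.0164), and Parp10 (0.1187) and Dtx3l (-0.1692) against Zbp1-/-. Leaving out 1 library or the pair gave ranges across 0 for these values. In Zbp1-/- against WT they ran from -0.0978 to 0.4404 for Dtx3l (-0.018 without WT replicate 2) and from -0.214 to 0.001 for Parp2. The double mutant against Tfam+/- ran from -0.2441 to 0.1707 for Parp11 (0.0282 without Tfam+/-Zbp1-/- replicate 2) and from -0.215 to 0.0964 for Parp1. Against Zbp1-/- they ran from -0.6464 to 0.1187 for Parp10, -0.0955 to 0.0344 for Parp11 (0.0129 without Zbp1-/- replicate 1), -0.1439 to 0.1351 for Parp14 (0.0503 without Zbp1-/- replicate 1), -0.1692 to 0.369 for Dtx3l and -0.205 to 0.1493 for Parp1 (8e-04 without Tfam+/-Zbp1-/- replicate 2). For Parp1 in the interaction the range was -0.4936 to 0.0164.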
